A study of Harpegnathos saltator with 22 samples.

Results

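Ovaries of workers were compared with ovaries of gamergates in the ant Harpegnathos saltator, using the ants that had received a control siRNA. The comparison takes 11 of the 22 samples of the series, chosen by their labels alone: 6 mature gamergates and 5 mature workers, each sample being the ovaries of 1 ant. All 11 ants were injected in the head with dicer-substrate siRNA against GFP, a jellyfish protein that ants do not have (the treatment protocol in the labels spells the control target GRP), in 5% glucose with the transfection reagent in vivo-jetPEI. Their ovaries were taken 24 h later, and strand-specific libraries were made from polyadenylated RNA. The other 11 ants received siRNA against Kr-h1 (7 gamergates and 4 workers) and enter only where their comparisons are set beside this one. Both castes thus carried an injection, the reagent and a siRNA, and ants without an injection were not analysed here. Age, colony and the state of the ovary at dissection are not stated in the labels.

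In Harpegnathos, a worker can mate, begin to lay eggs and take over reproduction in the colony, and is then called a gamergate. Its ovary is made of strings of egg chambers. In each chamber, germ-line nurse cells load the oocyte with RNA and protein, while a layer of somatic follicle cells surrounds the oocyte, lets yolk through and finally secretes the eggshell. Insect ovaries also make ecdysteroids, the steroid hormones related to ecdysone, and juvenile hormone is a regulator of yolk formation in many insects. The tissue is held in muscle sheaths, supplied by tracheae and nerves, and lies beside fat body in the abdomen.

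The values come from the authors' deposited table of 13693 genes, which gives for each gene a mean normalized count over the 11 ants, a log2 fold change of workers over gamergates, a p-value and an adjusted p. It holds no value per ant, so the spread over samples, the overlap of the groups and the depth of each library cannot be shown. Below, a level is the group's mean normalized count, worked out from the deposited mean and fold change, and an interval is a 95% interval on the log2 scale from an SE recovered from the deposited p-value. Positive log2 values mean higher in workers. Symbols follow presumed counterparts in flies or bees, and the roles given are known from those insects or from other animals.

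The 2 castes' ovaries differed across much of the transcriptome. In the authors' deposited table, 6559 of 12338 tested genes passed an adjusted p of 0.05 (DESeq2), which is 53.2%. Of these, 3355 were higher in workers (27.2%) and 3204 were lower (26.0%). At least 2-fold differences were called for 1765 genes higher in workers (14.3%) and 1452 lower (11.8%), and at least 4-fold differences for 843 and 813. The median log2 fold change over all tested genes was 0.05, and the median recovered SE was 0.20. A share of called members near 53.2% in a gene list is therefore no more than the background, and the lists below are read by their directions and sizes.

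**Figure D1:**
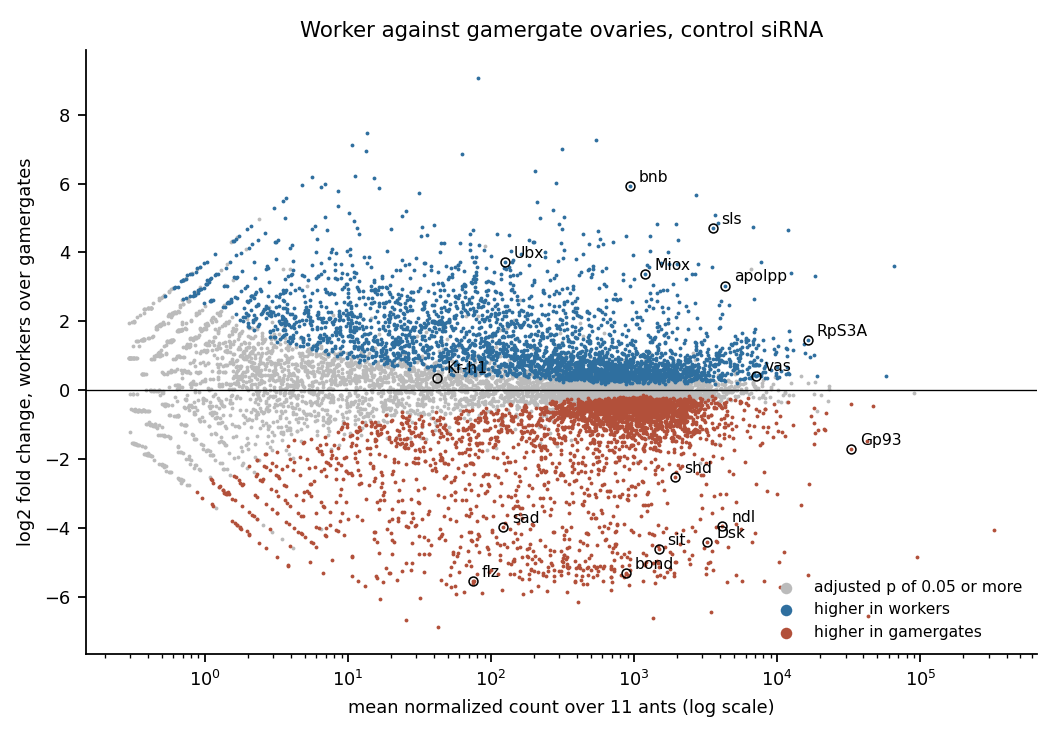
Each point is 1 of the 12338 tested genes, with the mean normalized count over the 11 ants on a log axis and the log2 fold change of workers over gamergates on the other; blue and red points passed the adjusted p of 0.05. Called genes lie on both sides of 0 at all levels, with bnb and sls far up and bond, flz and Dsk far down, while vas and Kr-h1 lie close to 0.

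The tissue label was checked against defining markers. Of 8 listed germ-line markers, the 2 with a matching symbol were present in both castes: vas, a helicase of the germ plasm (LOC105185716), had 6164 normalized counts in gamergates and 8195 in workers, and AGO3, an Argonaute of the piRNA pathway (LOC105180460), had 1344 and 1125. Neither differed by as much as 1.5-fold. In the authors' deposited table vas passed, with a log2 fold change of 0.41 (DESeq2, adjusted p = 0.00275), and AGO3 did not (adjusted p = 0.0832). The call of vas was lost once the trend along the mean count was removed (adjusted p = 0.0538, recomputed from the DESeq2 values), and AGO3 passed once fold changes were centred on the median of all genes (adjusted p = 0.0382).

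Markers of other tissues were not equal between the castes, and their values stand beside every result below. In bulk tissue, fewer cells of a type and less RNA per cell cannot be told apart. The 9 muscle markers summed to 3917 normalized counts in gamergates and 25493 in workers, 6.51-fold more, and 8 of the 9 were higher in workers. The 5 fat body markers summed to 1062 and 8392, 7.91-fold more in workers, nearly all of it from apolpp, the precursor of the lipid carrier apolipophorin, and 4 of the 5 were higher in workers. The hexamerins Hex70a, Hex70c and Hex110, storage proteins that fat body makes in bulk, lay at low levels, between 3.38 and 23.4, with Hex110 4.41-fold and Hex70c 2.89-fold higher in workers and Hex70a short of the threshold. The 6 nerve markers summed to 3981 and 5514, with 4 higher and 2 lower in workers. The sum of the 3 haemocyte markers was 2289 in gamergates and 1110 in workers, most of it from Pvr, with 1 marker higher and 2 lower. Hml alone had 493 and 363, and PPO was low in both castes but higher in workers. The sum of the 3 tracheal markers was 2265 and 569, most of it from serp, with 1 higher and 1 lower in workers. No marker matched in the table was at 0. The part of these tissues in the other caste differences was not tested.

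**Figure D2:**
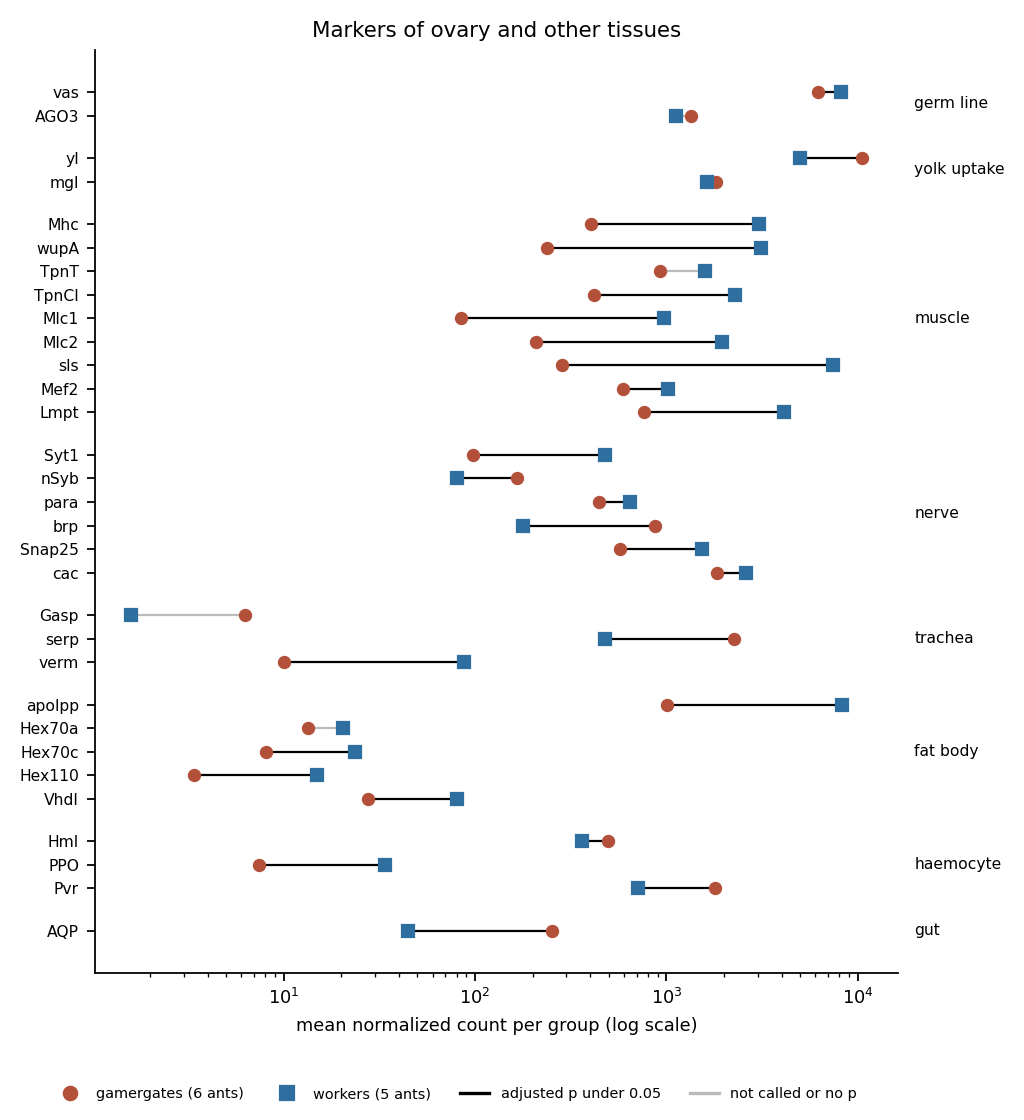
The mean normalized count per group on a log axis is shown for each defining marker, with circles for 6 gamergates, squares for 5 workers and black lines where the adjusted p was under 0.05. Muscle markers and apolpp lie to the right in workers, germ-line markers nearly coincide, and the hexamerins are low in both castes.

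The eggshell list had the lowest median of the 23 gene lists. Of 11 tested genes of the eggshell and follicle cell list, 6 were lower in workers and 2 higher, with a median log2 fold change of -1.06 against 0.05 for all tested genes. The summed level of all 12 matched genes of the list, including yellow-g without a p-value, was 22496 normalized counts in gamergates and 6613 in workers. For ndl (nudel, LOC105181294), a serine protease gene that fly follicle cells need to build a stable eggshell and to start the signal for the back-to-belly axis, there were 7178 normalized counts in gamergates and 460 in workers. That is a log2 fold change of -3.96 in the authors' deposited table, 15.6-fold lower, with an interval from -4.81 to -3.12 (adjusted p = 8.57e-19, DESeq2). The torso-like gene tsl (LOC105180591), whose product marks the ends of the fly egg, had 1656 and 613 (in the authors' deposited table, DESeq2 gave an adjusted p = 0.0137). The gene wbl (windbeutel, LOC105181246), an endoplasmic reticulum protein that the same back-to-belly signal needs, had 2847 and 1107. Levels of tj (traffic jam), a transcription factor of somatic gonad cells, were 1302 and 702, also lower in workers.

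Further eggshell genes had large but poorly determined differences. The gene yellow-g (LOC105186379), which in flies hardens the eggshell, had 4379 normalized counts in gamergates and 335 in workers, 13.1-fold lower, but the authors' deposited table gives it no p-value. Its neighbour by name, yellow-g2 (LOC105186378), had 314 and 108, and its interval from -4.16 to 1.07 includes 0 (adjusted p = 0.337 in the authors' deposited table, DESeq2). The receptor-like eggshell gene fs(1)N stood at 1977 and 1140 (adjusted p = 0.0629 in the authors' deposited table, DESeq2). The 2 members higher in workers were mirr (mirror), a homeodomain factor that patterns the follicle layer, with 162 and 555, and the adhesion protein gene Fas3 with 375 and 506. The follicle genes therefore did not all move one way.

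The genes of ecdysteroid synthesis named here were lower in workers, and receptor and response genes were mixed. Of 33 tested genes of the juvenile hormone and ecdysone list, 15 were lower in workers and 6 higher, with a median log2 fold change of -0.21. Every one of the 5 steroid-making genes on it that is named here was lower in workers, but some of them were picked after their values had been seen. The gene nvd (neverland), the oxygenase that acts first on dietary sterol, had 748 normalized counts in gamergates and 304 in workers. The short-chain dehydrogenase gene sro (shroud) had 1276 and 562. The cytochrome P450 gene dib (disembodied) had 2103 and 728.

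The last steps of synthesis differed most. The gene sad (shadow, LOC105191917), the P450 that makes ecdysone from its last precursor, had 210 normalized counts in gamergates and 13.2 in workers, 15.9-fold lower, with a log2 fold change of -3.99 in the authors' deposited table (interval -4.86 to -3.13, adjusted p = 3.92e-18, DESeq2). The gene shd (shade, LOC105191056), the P450 that turns ecdysone into the active 20-hydroxyecdysone, had 3080 and 533, 5.78-fold lower (adjusted p = 4.4e-38 in the authors' deposited table, DESeq2). The gene Cyp18a1, whose enzyme breaks the hormone down, was lower in workers too, from 1018 to 85.0, so that genes for making and for removing the hormone were both higher in gamergates.

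Hormone receptors and their response genes split. The receptor gene Ecr was at 972 normalized counts in gamergates and 979 in workers, and its log2 fold change of 0.01 in the authors' deposited table did not pass (adjusted p = 0.962, DESeq2). Its partner usp (ultraspiracle) was higher in workers, at 578 and 966. Among the early and delayed response genes, br (broad), a zinc-finger factor, fell from 333 in gamergates to 32.9 in workers. The nuclear receptor genes Hr3 (282 and 94.0), Hr4 (707 and 309) and ftz-f1 (1928 and 874) were also lower in workers. The receptor gene E75 (1223 and 1677) and the ETS factor gene Eip74EF (1693 and 1676) did not pass. Eip93F, a factor of the adult programme, was higher in workers, from 1666 to 4410. The orphan nuclear receptor gene Hr83 was low in both castes, at 49.4 and 3.79.

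For juvenile hormone, Kr-h1 (LOC112589664), the zinc-finger factor that carries much of the hormone's signal and the target of the siRNA in the other ants, had 37.3 normalized counts in control gamergates and 47.8 in control workers. Its log2 fold change of 0.36 in the authors' deposited table did not pass (adjusted p = 0.625, DESeq2), and the interval from -0.77 to 1.49 allows differences of more than 1.5-fold either way. The methyltransferase gene jhamt, which finishes juvenile hormone in its gland, was barely detected, at 0.448 and 1.53. All 3 genes with a symbol for juvenile hormone binding were tested, a family picked after its values had been seen. Jhbp2 had 5071 in gamergates and 476 in workers, Jhbp16 had 334 and 22.4, and JHBP-1 was near 1 in both and did not pass. The intervals of the first 2 were wide, from -5.91 to -0.91 for Jhbp2.

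**Figure D3:**
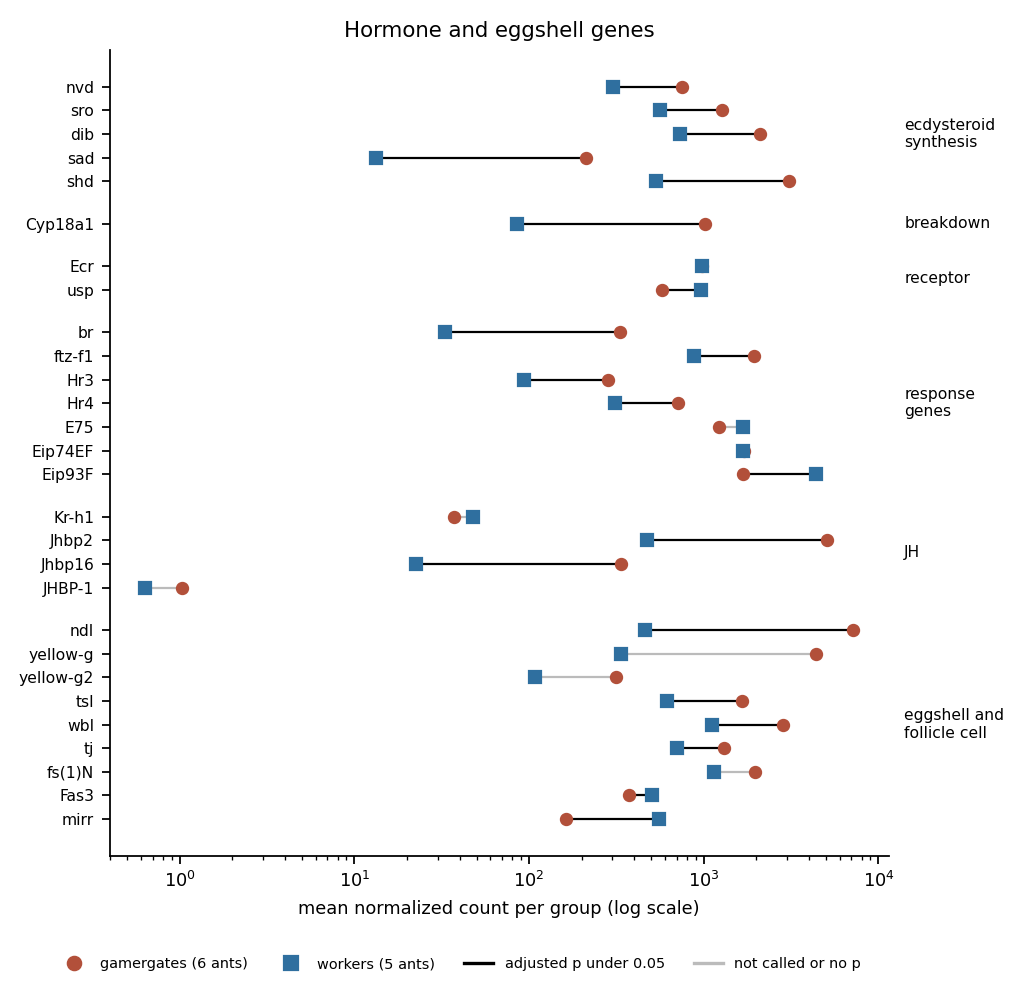
Mean normalized counts per group are drawn on a log axis for hormone and eggshell genes, with circles for gamergates, squares for workers, and black lines where the adjusted p was under 0.05. The 5 synthesis genes and ndl lie far to the left in workers, from 748 to 304 for nvd and from 210 to 13.2 for sad, while Ecr and Eip74EF coincide.

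Yolk and lipid uptake did not move as 1 group. Of 21 tested genes on that list, 4 were higher in workers and 4 lower, with a median log2 fold change of -0.02. The yolk receptor gene yl (yolkless, LOC105182956), through which the oocyte takes in vitellogenin, had 10504 normalized counts in gamergates and 5004 in workers, a log2 fold change of -1.07 in the authors' deposited table (interval -1.61 to -0.53, adjusted p = 0.000306, DESeq2). The gene AP-2alpha, an adaptor subunit for clathrin-coated pits, fell with it from 1505 to 809. The clathrin light chain gene Clc (1944 and 3099) and the dynamin gene shi (1287 and 1944) were higher in workers. The gene mgl (megalin), of the same receptor family as yl, at 1813 and 1634, did not pass (adjusted p = 0.696 in the authors' deposited table, DESeq2). The other 2 members higher in workers were apolpp (1009 and 8252) and Lsd-1, a perilipin on lipid droplets (15.7 and 184), both genes of fat body.

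Germ-line genes differed by smaller factors and in both directions. Of 26 tested, 8 were higher in workers and 9 lower, with a median log2 fold change of -0.13. The piRNA factor gene papi (LOC105180822), a Tudor protein at the mitochondrial surface, had 10955 normalized counts in gamergates and 3601 in workers, a log2 fold change of -1.60 in the authors' deposited table (interval -1.81 to -1.40, adjusted p = 4.47e-52, DESeq2). Also lower in workers was me31B, a helicase of RNA granules that hold maternal RNA silent, at 14586 and 6291. For exu (exuperantia), which fly oocytes need to place bicoid RNA, the levels were 23222 and 11904. For BicC (Bicaudal C), an RNA-binding protein of the oocyte, they were 5009 and 2386.

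Other germ-line genes were higher in workers. The gene orb, an RNA-binding translation regulator of the oocyte, had 3779 normalized counts in gamergates and 7944 in workers. The gene BicD (Bicaudal D), an adaptor for RNA transport into the oocyte, had 1118 and 1678. The helicase gene bel (belle) had 5010 and 9232, and hts (hu-li tai shao), an adducin of ring canals and the fusome, had 1638 and 3075. RNA-binding genes of the oocyte thus lay on both sides. Of the 10 tested meiosis genes, 5 were higher in workers and 2 lower, with a median log2 fold change of 0.34. The meiotic checkpoint gene pch2 stood out as lower, from 1686 in gamergates to 574 in workers (adjusted p = 2.79e-60 in the authors' deposited table, DESeq2). The topoisomerase-like gene mei-W68, which cuts DNA to start recombination, was scarce in both castes but higher in workers, at 3.28 and 13.0.

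Among cell cycle genes, more were lower in workers than higher. Of 62 tested, 26 were lower and 10 higher, and the median log2 fold change was -0.22. The lower ones with the smallest adjusted p act at mitosis: the separase gene Sse (844 in gamergates and 380 in workers), the kinase gene Cdk1 (1153 and 536), and borr (borealin), a subunit of the chromosomal passenger complex (1832 and 900). Its partner genes Incenp (2852 and 1466) and aurB (1814 and 933) were lower as well. The higher ones with the smallest adjusted p were the damage kinase gene tefu (92.4 and 211), the origin gene Orc1 (1308 and 2249) and dap (dacapo), an inhibitor of the cyclin E kinase (1020 and 2164). None of these differences exceeded 2.5-fold, so the cell cycle list spans a much narrower range than the hormone list.

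Chaperone genes lay on both sides. Of 28 tested chaperone genes, 10 were lower in workers and 6 higher, and the median log2 fold change was -0.01. Those named from the endoplasmic reticulum were lower in workers: Gp93, the reticulum form of Hsp90 (LOC105191359), had 47903 normalized counts in gamergates and 14511 in workers, a log2 fold change of -1.72 in the authors' deposited table (interval -2.08 to -1.37, adjusted p = 6.96e-20, DESeq2). The reticulum Hsp70 gene Hsc70-3 had 25802 and 8725, and Calr (calreticulin) had 25873 and 11460. In the cytosol, Hsp90 was higher in workers, at 11888 and 23181, with its co-chaperone gene Cdc37 at 1668 and 2761, Hsc70-4 did not pass, at 18602 and 17275, and the co-chaperone gene Droj2 was lower, at 9602 and 6564.

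A secretory pathway family was assembled after the chaperone values had been seen, so its direction is only a description. Of its 43 tested genes, 24 were lower in workers and 2 higher, with a median log2 fold change of -0.38. Examples were the stress-induced reticulum protein gene Manf (3079 and 1079), sel (5761 and 1897) and Sec63 of the protein channel (2735 and 1721). Coat genes of vesicles moved less, as in gammaCOP (2059 and 1426). The stress factor gene Xbp1 went the other way, from 2421 in gamergates to 3978 in workers. Of 32 tested proteasome genes, 9 were lower in workers and 2 higher (median -0.18). The share called, 34.4%, was below the 53.2% of all tested genes. With the trend along the mean count removed, 6 were lower and 3 higher (median -0.08). Those lower in workers included the regulatory subunit genes Rpn1 (4220 and 2553) and Rpt4 (3235 and 2003).

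Among the 23 lists, cytosolic ribosomal protein genes had the largest share of members called in 1 direction. Of 58 tested, 54 were higher in workers and 0 lower, with a median log2 fold change of 1.01 in the authors' deposited table. The other 4 did not pass DESeq2's adjusted p of 0.05, and 0 members were lower at an unadjusted p under 0.05. Together the list made up 2.07% of the summed group means in gamergates and 4.45% in workers. The gene RpS3 of the small subunit (LOC105182871) had 5925 normalized counts in gamergates and 19380 in workers, a log2 fold change of 1.71 in the authors' deposited table (interval 1.31 to 2.11, adjusted p = 4.73e-16, DESeq2). RpS3A had 9211 and 25037, and RpL15 of the large subunit had 3744 and 10544.

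Other translation genes did not share this. Of 59 genes of ribosome biogenesis and translation, 16 were higher in workers and 14 lower, with a median of 0.02. The initiation factor genes eIF4A (12317 and 25127) and eIF3e (2570 and 5555) were higher in workers, and eEF1delta (5452 and 3304) and the nucleolar gene l(3)72Dn (2018 and 1195) were lower. The growth-linked gene Tctp, from 9079 in gamergates to 22766 in workers, had a size of change like the ribosomal proteins. Respiratory chain and ATP synthase genes were higher in workers for 23 of 54 and lower for 2, with a median of only 0.21. The complex III gene UQCR-6.4 (656 and 1347) was among the larger ones.

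**Figure D4:**
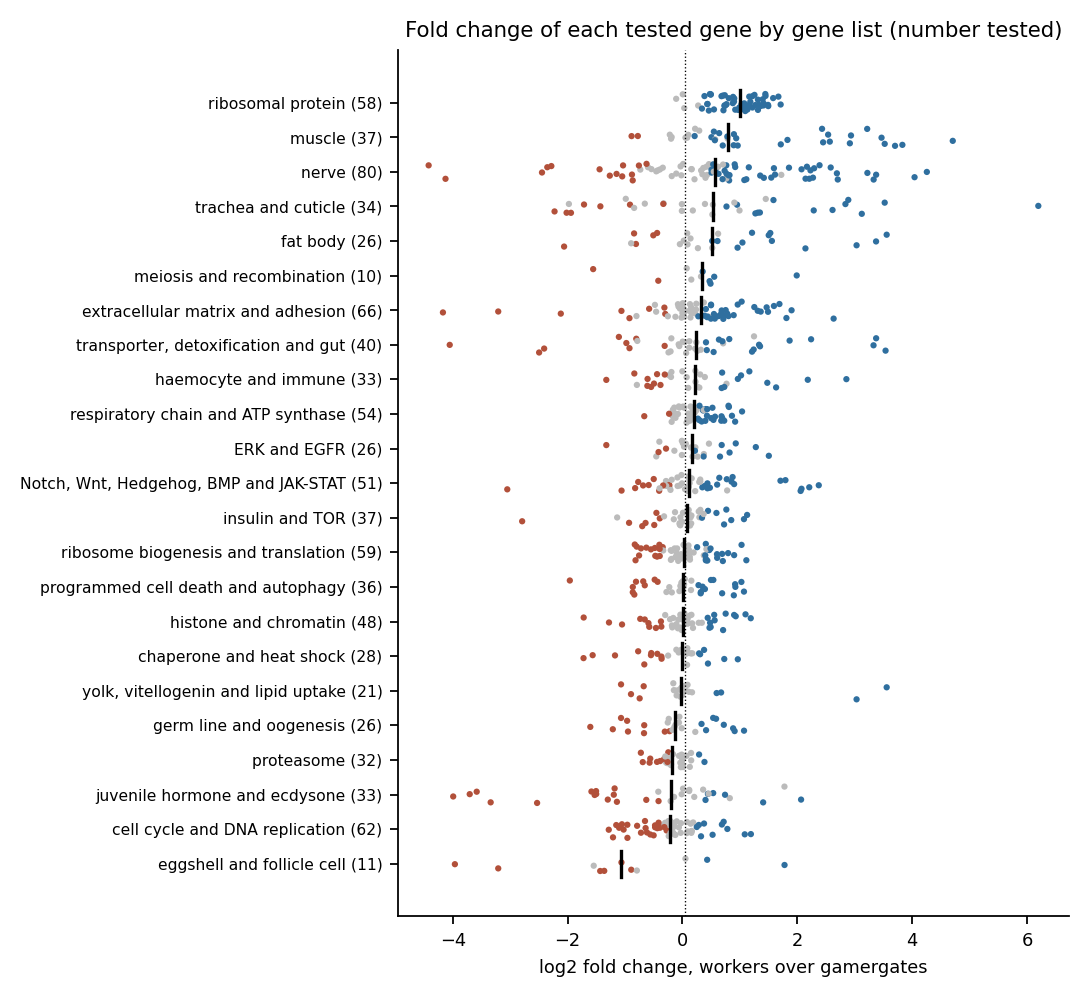
The log2 fold change of workers over gamergates is shown for each tested gene of 23 lists, blue or red where the adjusted p was under 0.05 and grey otherwise, with black bars at the list medians and a dotted line at the median of all tested genes, 0.05. Ribosomal protein genes form a tight cloud around 1.01, muscle genes spread far to the worker side, nerve genes spread far to both sides, and the eggshell list has the lowest median, -1.06.

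Insulin and TOR genes moved little as a list, with 8 of 37 higher in workers, 7 lower and a median log2 fold change of 0.09. A single member was far from the rest. The gene ImpL2 (LOC105183446), a secreted protein that binds insulin-like peptides and dampens their signal in flies, had 1590 normalized counts in gamergates and 230 in workers. It was 6.92-fold lower in workers, with a log2 fold change of -2.79 in the authors' deposited table (interval -3.33 to -2.25, adjusted p = 1.16e-22, DESeq2). The kinase gene Akt, downstream of the insulin receptor, was lower too, from 3475 to 1824. The transcription factor gene foxo (463 and 597) and Thor, the brake on cap-dependent translation (5199 and 5229), did not pass. Among members higher in workers were step (steppke), a guanine nucleotide exchange factor (1180 and 2575), and REPTOR, a factor held back by TOR (955 and 1577).

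In the other signalling lists, the shares of called members, 42.3% and 52.9%, did not exceed the 53.2% of all tested genes. In the ERK and EGFR list, 8 of 26 were higher and 3 lower (median 0.16), with the ETS factor gene pnt (pointed) at 214 in gamergates and 608 in workers and the phosphatase gene Mkp3 at 213 and 515. The kinase genes at the core differed less, with Dsor1 (MEK) at 933 and 1498 and rl (ERK) at 848 and 695. In the Notch, Wnt, Hedgehog, BMP and JAK-STAT list, 17 of 51 were higher and 10 lower (median 0.11). The Wnt receptor gene fz2 (245 and 1032), the Hedgehog effector gene ci (35.2 and 146) and the activin receptor gene babo (354 and 1154) were higher in workers. The ligand gene mav (maverick), of the TGF-beta family, was lower by 8.29-fold, from 804 to 97.0.

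Chromatin genes were balanced, with 12 of 48 higher in workers, 10 lower and a median of 0.01. The methyltransferase gene Mt2, of the Dnmt2 kind, had 2756 normalized counts in gamergates and 836 in workers, a log2 fold change of -1.72 in the authors' deposited table (DESeq2, adjusted p = 3.62e-56). Genes higher in workers included the remodeller gene Mi-2 (2347 and 4463), the Polycomb methyltransferase gene E(z) (903 and 1684) and osa (1895 and 4054). Cell death and autophagy genes were also on both sides, with 13 of 36 higher and 9 lower (median 0.01). The conjugating enzyme gene Atg3 was the most different of them by adjusted p, at 6187 and 1588, and the caspase gene Dronc fell from 2407 to 1321, while p53 (465 and 948) and the lysosomal protease gene cathD (2753 and 5213) were higher in workers.

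Most muscle genes on the list were higher in workers, and some contractile genes were far higher. Of 37 tested muscle genes, 25 were higher and 2 lower, with a median log2 fold change of 0.79. The titin-like gene sls (LOC105184337), a spring of the sarcomere, had 285 normalized counts in gamergates and 7439 in workers, 26.1-fold higher, with a log2 fold change of 4.71 in the authors' deposited table (interval 3.58 to 5.84, adjusted p = 5.42e-15, DESeq2). The troponin I gene wupA had 239 and 3104, the myosin light chain gene Mlc1 84.4 and 969, and the myosin heavy chain gene Mhc 402 and 3031. Troponin T (TpnT) stood at 923 and 1591 and did not pass (adjusted p = 0.257 in the authors' deposited table, DESeq2). Among genes lower in workers was SERCA, the calcium pump, at 2295 and 1339.

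Nerve genes lay far out on both sides. Of 80 tested, 39 were higher in workers and 14 lower, with a median of 0.56; with the trend along the mean count removed, these were 32, 18 and 0.32. The synaptic genes Syt1 (97.1 and 476) and Snap25 (576 and 1537) and the transporter gene VGAT of inhibitory neurons (10.1 and 105) were higher in workers. The active-zone gene brp (bruchpilot) was lower, from 868 to 178, and so were the vesicle gene nSyb (165 and 80.6) and the monoamine transporter gene Vmat (120 and 22.1). The neuropeptide gene Dsk (LOC105183918), which encodes sulfakinin, a satiety peptide, had 5736 normalized counts in gamergates and 268 in workers, 21.4-fold lower, with a log2 fold change of -4.42 in the authors' deposited table (interval -5.03 to -3.81, adjusted p = 1.59e-43, DESeq2).

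In a family of peptide and amine genes grouped after the value of Dsk had been seen, and including it, 7 of 21 tested were higher and 6 lower. With the trend along the mean count removed, 6 were higher and 9 lower. Besides Dsk, those lower in workers included Dh44, a diuretic hormone (445 and 40.7), Pdf, a peptide of clock neurons (102 and 22.6), and Hdc, which makes histamine (1178 and 51.2). Higher in workers were the pyrokinin-type gene Pban (14.8 and 125), and ple and Ddc, the enzymes of dopamine synthesis that also serve cuticle tanning (2100 and 3572 for ple, 677 and 2449 for Ddc).

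Lists for fat body, trachea and cuticle were also examined. Of 26 tested fat body genes, 12 were higher in workers and 5 lower (median 0.52). The ferritin genes Fer1HCH (5120 and 14498) and Fer2LCH (6479 and 13360) and the trehalose transporter gene Tret1 (510 and 5278) were higher, while ry, xanthine dehydrogenase, was lower (1666 and 399). Of 34 trachea and cuticle genes, 13 were higher and 7 lower (median 0.53), but 10 and 9 (median 0.08) with the trend along the mean count removed. Members included the tracheal factor gene vvl at 27.4 and 202 and the chitin deacetylase gene serp at 2248 and 480.

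Of 66 matrix and adhesion genes, 32 were higher in workers and 8 lower (median 0.32). The teneurin gene Ten-m (235 and 1457) and the fasciclin genes Fas1 (259 and 909) and Fas2 (849 and 2560) were higher. The cadherin genes Cad88C (141 and 7.84) and Cad74A (94.7 and 10.2) were lower in workers. Of 33 haemocyte and immune genes, 10 were higher and 9 lower (median 0.23), with the receptor gene Tollo at 5.08 and 36.8 and the phenoloxidase gene PPO at 7.46 and 33.8. The antiviral RNA interference genes AGO2 (8880 and 5813) and Dcr-2 (1882 and 1289) were lower in workers, in ants that had all received siRNA. In the transporter, detoxification and gut list, 15 of 40 were higher and 8 lower (median 0.23). The inositol oxygenase gene Miox (227 and 2351) and Tpx-4 (110 and 1271) were higher, and the aquaporin gene AQP (251 and 44.5) and the ionotropic receptor gene Ir76b (178 and 10.7) were lower.

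Patterning factors that mark the body's segments and appendages were grouped into a family after the values of Ubx and bi had been seen. Of 21 tested, 10 were higher in workers and 3 lower, which is 61.9% called against 53.2% of all tested genes. With the trend along the mean count removed, these were 10 and 5, and the median log2 fold change went from 0.61 to 0.18. The Hox genes Ubx (19.0 in gamergates and 250 in workers) and Antp (21.9 and 124) were higher in workers, and Dfd (24.7 and 4.16) was lower. The eye and gonad factor gene so (sine oculis) was higher, at 203 and 1025, and the appendage gene Dll (Distal-less) was lower, at 346 and 111. Cilium genes, a last such family, were 12 higher and 10 lower of 34 tested, and 9 higher and 13 lower with the trend along the mean count removed.

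Among genes with a symbol, a call and a mean of at least 50, the 12 largest increases in workers were 11.8-fold or more. The gene bnb (bangles and beads, LOC105189268), found in fly glia and neurons, led them with 33.0 normalized counts in gamergates and 2007 in workers, a log2 fold change of 5.93 in the authors' deposited table (interval 4.59 to 7.27, adjusted p = 8.98e-17, DESeq2). B-gluc1 followed with 228 and 7775. Behind sls came the channel gene trp (7.72 and 147), the bristle gene jv (javelin, 10.8 and 159), the T-box factor gene bi (32.8 and 482), Ubx, the transglutaminase gene Tg (21.4 and 282), wupA, the phosphodiesterase gene Pde8 (22.1 and 266), the POU factor gene pdm3 (13.5 and 160) and Lsd-1.

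The 12 largest decreases in workers were 18.0-fold or more. Enzymes of lipid and sugar chemistry were among them. The fatty acid elongase genes bond (LOC105190301) and sit (LOC105190303) had 1576 and 2624 normalized counts in gamergates and 39.4 and 106 in workers, with log2 fold changes of -5.32 and -4.63 in the authors' deposited table (DESeq2, adjusted p = 9.54e-20 and 7.93e-11). The alpha-glucosidase gene Hbg3 had 578 and 21.0, and the sulfotransferase gene St2 had 95.9 and 3.70.

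The rest of the 12 have mixed roles. The transmembrane serine protease gene flz (filzig) had 135 normalized counts in gamergates and 2.86 in workers, dsb (debris buster), a scavenger receptor of the CD36 family, 298 and 6.57, and the cathepsin L-type gene CtsL4 245 and 6.03. The guanylyl cyclase subunit gene Gycalpha99B had 388 and 18.8, and conv (convoluted), a leucine-rich repeat protein, 833 and 46.3. Hdc, Dsk and Cad88C, given above, complete them. The intervals of flz (-8.10 to -3.03) and dsb (-7.98 to -3.03) were the widest of those given here for the 12, and those of Dsk and conv (-4.82 to -3.52) were narrow.

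The comparisons with Kr-h1 siRNA use the same control ants, so their fold changes are not independent of the caste values and are only set side by side. In the authors' deposited table, 1654 of 11145 genes passed after Kr-h1 siRNA in gamergates (14.8%) and 520 of 10577 in workers (4.92%, DESeq2). Kr-h1 itself had log2 fold changes of 0.26 in gamergates and -0.48 in workers after its siRNA, in the authors' deposited table. Neither passed (adjusted p = 0.734 and 0.706, DESeq2), so a lowered target transcript was not shown in these ovaries. For ndl, the log2 fold change in the authors' deposited table was -3.96 between castes, -3.87 after Kr-h1 siRNA in gamergates and -1.53 in workers. For bnb it was 5.93, 2.92 and -1.59 in the authors' deposited table, and the last did not pass (adjusted p = 0.211, DESeq2). For Dsk it was -4.42, -0.49 and 2.93 in the authors' deposited table, and only the caste and worker values passed.

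Genes of ecdysteroid synthesis, breakdown and response had differing values there. The log2 fold change of sad in the authors' deposited table was -3.99 between castes, -0.34 after Kr-h1 siRNA in gamergates and 0.08 in workers, with only the first past the threshold (adjusted p = 0.609 and 0.951 for the knockdowns, DESeq2). For shd the values in the authors' deposited table were -2.53, -0.32 and 0.07, with adjusted p = 0.609 and 0.879 for the knockdowns (DESeq2). The breakdown gene Cyp18a1 had values of -3.58, -1.60 and -0.46 in the authors' deposited table. Its knockdown values did not pass (adjusted p = 0.174 and 0.564, DESeq2). For dib they were -1.53, -0.01 and 1.43 in the authors' deposited table, and the value in workers passed (adjusted p = 0.000273, DESeq2). For br they were -3.34, -2.07 and -0.98 in the authors' deposited table, and the value in gamergates passed (adjusted p = 0.0128, DESeq2). The elongase gene bond had -5.32, -1.18 and 0.81 in the authors' deposited table, with neither knockdown value past the threshold (adjusted p = 0.116 and 0.511, DESeq2).

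**Figure D5:**
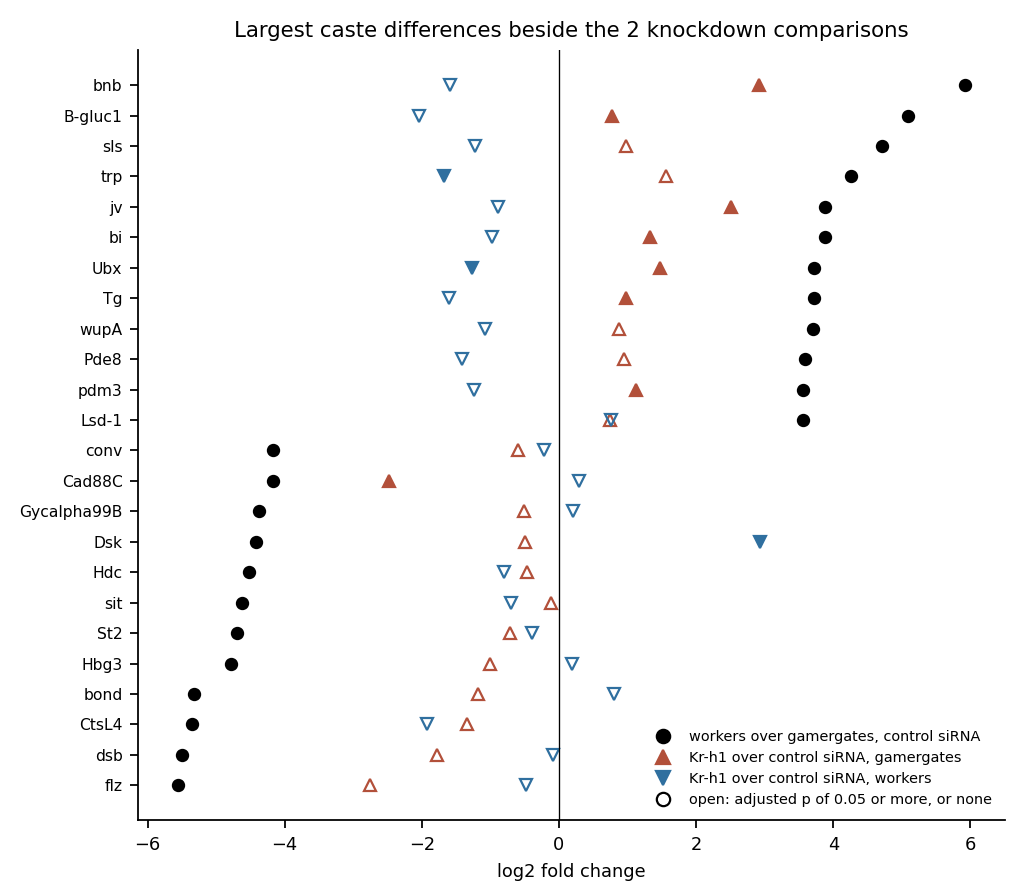
For the 12 genes highest and the 12 lowest in workers among those with a symbol, a call and a mean of at least 50, log2 fold changes are plotted for workers over gamergates (black circles) and for Kr-h1 over control siRNA in gamergates (red) and in workers (blue), filled where the adjusted p was under 0.05. Their caste values reach 5.93 and -5.56, while the knockdown values lie between -2.75 and 2.93, and all 3 comparisons draw on shared control ants.

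The highest counts in each caste belonged to a gene without a descriptive symbol, though counts are not per length. LOC105181257 had 567375 normalized counts in gamergates, 4.83% of the summed group means, and 33798 in workers, with a log2 fold change of -4.07 in the authors' deposited table (interval -5.64 to -2.50, adjusted p = 1.81e-06, DESeq2). LOC105187459 was the top gene of workers with 131500, 1.22% of their sum, against 10760 in gamergates. The 10 highest genes held 10.1% of the sum in gamergates and 4.93% in workers. Among genes with a symbol, the largest differences of means toward gamergates besides Gp93, Hsc70-3, Calr and exu were Idh3a, a subunit of isocitrate dehydrogenase (60013 and 21406), and yps, a Y-box protein of oocyte RNA granules (53334 and 38414). Toward workers they included the cysteine protease gene CtsL1 (10339 and 21847) and the elongation factor gene EF1a-F2 (50403 and 66848).

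The balance of directions shifted with abundance: the median fell from class to class up to a mean count of 3000 and rose again above it. Tested genes with a mean count of up to 10 had a median log2 fold change of 0.59, those from 10 to 100 had 0.45, those from 100 to 300 had 0.17, those from 300 to 1000 had -0.06 and those from 1000 to 3000 had -0.11. Above 3000 the median was 0.10, with 225 genes higher in workers and 165 lower. Long noncoding RNA genes were called higher in workers for 259 of 902 and lower for 151 (median 0.47), and protein-coding genes for 3091 and 3050 of 11424 (median 0.03).

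For 109 genes the authors' deposited table gives a fold change and no p-value. This keeps them out of every count of tested or called genes above, but not out of the summed levels. DESeq2 can withhold a p-value where 1 library has an extreme count, and whether it did so here is not stated. Of the 109, 73 were at least 2-fold higher in workers and 11 at least 2-fold lower. They include yellow-g, the iron carrier gene Tsf1 (1505 in gamergates and 11827 in workers), the peptidoglycan recognition gene Pgrp-s2 (884 and 7631) and the cuticle protein gene CPR14 (316 and 6135). The last 3 were named after their values were seen, and none of the 4 has a test.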

How the data were processed

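Ovary RNA of single ants was sequenced from polyadenylated, strand-specific libraries, per the labels' protocols. STAR alignment, featureCounts and DESeq2 are named in the submitters' processing notes, with bcl2fastq before them; versions, build and model are not given in the sources here. The only file analysed is the authors' deposited table of 3 comparisons, which lists, per gene and comparison, the mean of the normalized counts, the log2 fold change, its p-value and that value after Benjamini-Hochberg adjustment. The adjustment was checked and matched to within 0.00084. The table has 0 columns for single ants, so edgeR or any other count test could not be run and the authors' own DESeq2 calls at an adjusted p of 0.05 were used, as planned for that case. Where nothing else is said, replicates are separate ants, as the labels state.

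From the deposited log2 fold change and mean count, group means were computed with 6 gamergates and 5 workers. Control means rebuilt from the knockdown comparisons matched them with an SD of 0.0014 (gamergates) and 0.0084 (workers) on the log2 scale over 8977 genes with a mean of at least 50, around constant offsets of 0.035 and -0.106 (median log2 difference). The SE is the log2 fold change divided by the z value that its p corresponds to, on the assumption of Wald's test. The recovery was tested on simulated data made under that assumption, which checks the arithmetic and not the assumption. An adjusted p was missing for 475 genes with a mean of at most 0.29, and 771 genes had no fold change.

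Of 13693 gene IDs, 13681 matched the RefSeq table of the assembly Hsal_v8.6, and 4117 (30.1%) had a descriptive symbol. No coordinates or sequences are given, because no genome was used here. The 23 gene lists hold 893 genes, after 20 symbols that differ only in case from an unrelated gene were left out. The comparison, the lists and the markers were chosen with earlier results of these data known, and 5 families were added after their values had been seen. Named genes are Kr-h1, the 12 largest called changes in each direction with a mean of at least 50, up to 3 called members per list and direction by adjusted p, all defining markers, and the 6 largest differences of means in each direction. Further list and family members were chosen after their values were seen. Python 3.11.15, pandas 2.3.3, scipy 1.17.1 and matplotlib 3.10.9 were used.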

Additional observations from a re-analysis of the deposited data

How the results depend on the processing

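No paired analysis was possible because the deposited table has no value per ant, and for the same reason no ant could be left out and the spread within a caste is not shown. A check by protein length was not run, because no protein sequences were used here. The counts of 3355 genes higher and 3204 lower in workers stayed within 1.5 times under 7 settings: thresholds of 0.01 (2637 and 2661) and 0.1, no filter on low means, means of at least 50 only (2444 and 2784), centring on the median of all tested genes, centring on genes with means from 1000 up (3812 and 2812), and removal of the trend along the mean count (2985 and 3230). An alternative chosen after seeing the data, at least 2-fold with a mean of at least 50 and p-values set aside, gave 983 higher and 1068 lower, since it asks for larger changes of fewer genes. Of 180 named genes with a test, none changed without the filter; under centring AGO3 and fs(1)N passed and cac and Prosalpha7 no longer did; with the trend removed Gasp passed, EF1a-F2, Hex70c, rl, vas and vtd no longer did, and Kr-h1, which passed in neither case, turned from 0.36 to -0.071. Medians over lists were set against the median recovered SE of their members. They moved by more than it for trachea and cuticle (0.08 with the trend removed, 0.09 for means of at least 50). So did that of fat body (0.27 for means of at least 50). With the trend removed, the balance of called members turned for cilium (9 higher and 13 lower, median 0.07) and for peptide and amine genes (6 and 9). It also shifted, among others, for trachea and cuticle (10 and 9), meiosis (7 and 1) and patterning genes (10 and 5, median 0.18). The nerve median went from 0.56 to 0.32. Medians close to 0, as for chromatin, translation, chaperone and yolk genes, can change sign with centring or trend removal. The depth of each library is unknown.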
